A study of Mus musculus with 18 samples.

Results

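The MK5-depleted stable line of C2C12 cells was followed into differentiation, with 3 libraries at DM2 set against 3 libraries in GM, and it is described here across all expressed genes. These 6 libraries were chosen by their labels out of 18, and no measured value entered the choice. C2C12 is a mouse myoblast line. All 18 libraries come from C2C12 cells carrying a px459 plasmid, a vector that expresses Cas9 with a guide RNA, or a control plasmid. The MK5-depleted line received px459-Mk5sg, the ERK3-depleted line px459-Mapk6sg, and the control line the control plasmid. DM2 cells had spent 2 days in differentiation medium (DM), whereas GM cells proliferated in growth medium. Each of the 3 lines has 3 libraries at DM2 and 3 in GM. The labels do not say whether a line is 1 clone, nor whether replicate libraries come from separate cultures, so p-values measure the spread between these libraries, which may be technical.

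MK5, encoded by Mapkapk5, is a serine/threonine kinase that binds and is activated by the atypical MAP kinase ERK3, encoded by Mapk6, and FoxO3 is among its reported substrates. When serum factors are withdrawn, myoblasts leave the cell cycle, switch on myogenin and the contractile genes, and fuse into multinucleated myotubes, while some cells remain as undifferentiated reserve cells. In bulk RNA such as this, a larger share of cells expressing a gene and more of its RNA per cell cannot be told apart.

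RNA abundance was measured by stranded poly-A RNA-seq. The 6 libraries held 24.8 to 31.2 M reads (M for 1e6). Counts in genes came to 18.5 to 23.4 M. DM2 libraries 1 and 2 stood apart from DM2 library 3. Genes of the mitochondrial genome took 2.88, 2.87 and 0.827% of gene counts in DM2 libraries 1, 2 and 3, against 1.09, 1.35 and 1.04% in the GM libraries. Reads outside genes made up 3.96, 4.11 and 2.84% of reads at DM2, against 2.44, 2.85 and 3.22% in GM. Genes with an effective length under 1000 bases, as estimated by RSEM and averaged over libraries, also ran higher relative to those over 4000 bases at DM2. The difference of their median log2 deviations from the mean of the GM libraries was 0.31, 0.27 and 0.16 in the DM2 libraries. In the GM libraries, each set against the mean of the other GM libraries, it was -0.04, 0.21 and -0.16. Many results are therefore also given without DM2 libraries 1 and 2.

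The targeted gene is given first. Mapkapk5 (chromosome 5, 121525038 to 121545905, minus strand, GRCm38) overlaps the gene model Gm42878 on the same strand, and only 16, 11 and 18 reads at DM2 and 17, 17 and 11 reads in GM were assigned to it alone by the authors' counting. In these counts the 2 groups overlapped (log2 fold change 0.20 ± 0.28, edgeR adjusted p = 0.609). RSEM, which shares out ambiguous reads, gave 42.0, 47.3 and 58.0 TPM (RSEM abundance scaled for transcript length) at DM2 and 30.9, 33.4 and 35.7 TPM in GM. Every MK5-depleted library lay under the control libraries of its medium, which had 65.6 to 71.7 TPM at DM2 and 52.8 to 59.4 TPM in GM. The ERK3-depleted libraries had 56.5, 45.25 and 66.0 TPM at DM2, overlapping the MK5-depleted ones. In GM they had 55.2, 60.5 and 63.1 TPM, above every MK5-depleted library. With RSEM expected counts Mapkapk5 was called higher at DM2 in the MK5-depleted line (log2 fold change 0.65, edgeR adjusted p = 1.25e-06). Mapkapk5 RNA was detected in all 6 MK5-depleted libraries. A guide RNA acts on DNA, so RNA level alone does not show how much protein remained.

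Mapk6 (chromosome 9, 75369062 to 75410005, minus strand), the gene of the MK5 partner ERK3, had 161, 153 and 163 CPM at DM2, against 174, 142 and 175 CPM in GM. The groups overlapped and the gene was not called (log2 fold change -0.04 ± 0.12, edgeR adjusted p = 0.787). The control libraries had 219, 207 and 204 CPM at DM2, against 150, 119 and 124 CPM in GM, so the lines differed in both media. In the control line Mapk6 rose with differentiation (log2 fold change 0.68), and the difference between the 2 responses was called (-0.72 ± 0.17, edgeR adjusted p = 0.0123, and -0.67 with an edgeR adjusted p of 0.110 without DM2 libraries 1 and 2). Foxo3 had 47.3, 51.9 and 52.5 CPM at DM2, against 55.8, 53.7 and 53.6 CPM in GM, and was not called (log2 fold change -0.10 ± 0.09, edgeR adjusted p = 0.356). Fold changes are DM2 over GM, on the log2 scale, with ± giving the standard error unless SD is stated. CPM are counts per 1000000 gene counts on TMM-scaled library sizes, and a gene is called where the Benjamini-Hochberg adjusted p of edgeR's quasi-likelihood test is under 0.05.

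Both markers of the differentiation switch moved. Myog (chromosome 1, 134289989 to 134292548, plus strand), which encodes myogenin, the factor that commits a myoblast to differentiation, had 435, 369.8 and 623 CPM at DM2, against 29.9, 11.7 and 18.4 CPM in GM. The lowest DM2 library lay far above the highest GM library (log2 fold change 4.57 ± 0.38, edgeR adjusted p = 1.40e-07). Mki67 (chromosome 7, 135689784 to 135716361, minus strand), which encodes the proliferation antigen Ki-67, had 229, 175 and 179 CPM at DM2, against 259.7, 274 and 312 CPM in GM. The groups did not overlap, and Mki67 fell (log2 fold change -0.54 ± 0.15, edgeR adjusted p = 0.00832), by less than in the control line (log2 fold change -1.41, difference 0.88 ± 0.22, edgeR adjusted p = 0.0161). Without DM2 library 1 the difference was 0.75, with an edgeR adjusted p of 0.0504, and without DM2 libraries 1 and 2 it was 0.77, with one of 0.108.

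The Myog promoter is shown because E-boxes (CANNTG, the site of MyoD family factors) sit in it. Capitals mark E-boxes, found on either strand since the motif is its own reverse complement.
Myog upstream 250 bases (RefSeq, GRCm38.p6, chr1:134289754-134290003, plus strand): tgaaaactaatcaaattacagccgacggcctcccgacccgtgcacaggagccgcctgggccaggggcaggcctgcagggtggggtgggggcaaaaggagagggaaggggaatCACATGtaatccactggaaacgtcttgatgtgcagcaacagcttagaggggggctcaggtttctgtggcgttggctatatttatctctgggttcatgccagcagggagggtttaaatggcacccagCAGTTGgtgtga
The window holds 2 E-boxes. Of 27025 RefSeq promoter windows searched over the same 250 upstream bases, 66.0% hold at least 1 E-box. Among the promoters of listed sarcomere genes, 35 of the 41 with a window (85.4%) hold an E-box, and 15 (36.6%) hold the form CAGCTG, which 12.8% of all windows hold. Over the tested genes with a window these shares were 56.3% and 12.1%. Over genes called lower by more than 4-fold they were 66.3% and 20.9%. These are matches of letters in a window and not tested sites.

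**Figure D1:**
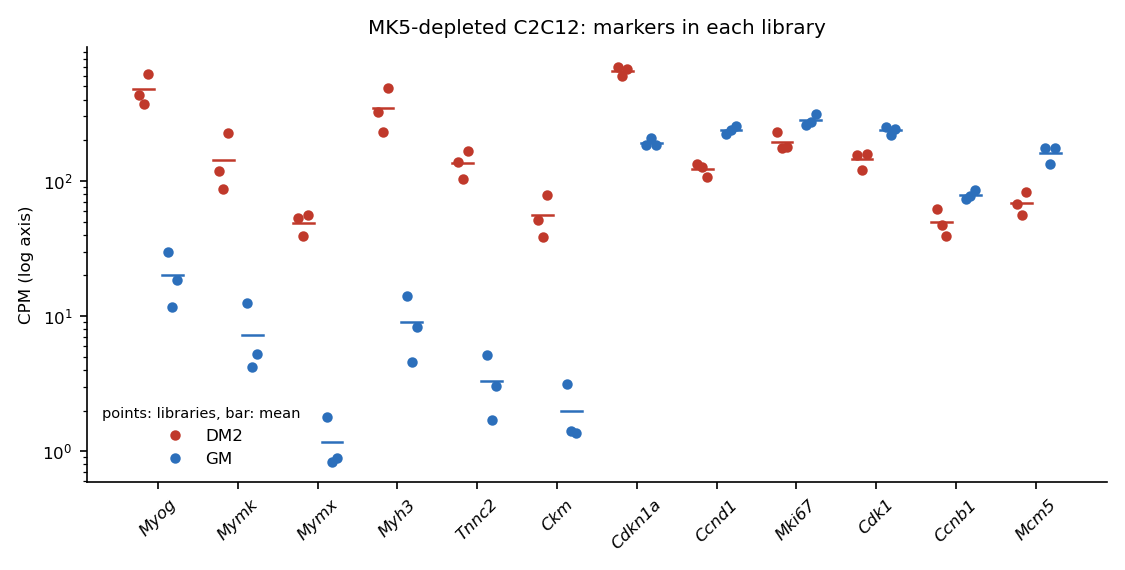
CPM (log axis) of 12 marker genes in each MK5-depleted library, DM2 in red and GM in blue; points are libraries and bars are means of 3. The 6 muscle genes and Cdkn1a lie higher at DM2 with no overlap, and Ccnd1, Mki67, Cdk1, Ccnb1 and Mcm5 lie lower, by much smaller factors.

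Of 13939 genes tested, 6876 (49.3%) were called, 3425 higher at DM2 (24.6%) and 3451 lower (24.8%). Most changes were small: the median log2 fold change of called genes was 0.61 among those higher and -0.59 among those lower. The large changes were mostly increases. Past 2-fold, 1023 genes were higher and 691 lower, past 4-fold 396 and 126, and past 8-fold 222 and 33. In CPM, the 3 DM2 libraries lay wholly to one side of the 3 GM libraries for 8005 of the tested genes (57.4%), and for 6564 of those called. The genes called higher include 123 with at most 3 counts in every GM library, whose fitted fold changes are no bound. By annotated type, 3062 of 12309 protein-coding genes were called higher and 3317 lower. For antisense genes the counts were 98 and 14 of 353, and for long intergenic non-coding RNAs 76 and 28 of 276. Without DM2 libraries 1 and 2, with the spread of the lone DM2 library taken from the other groups, 2238 genes were called higher and 2137 lower.

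**Figure D2:**
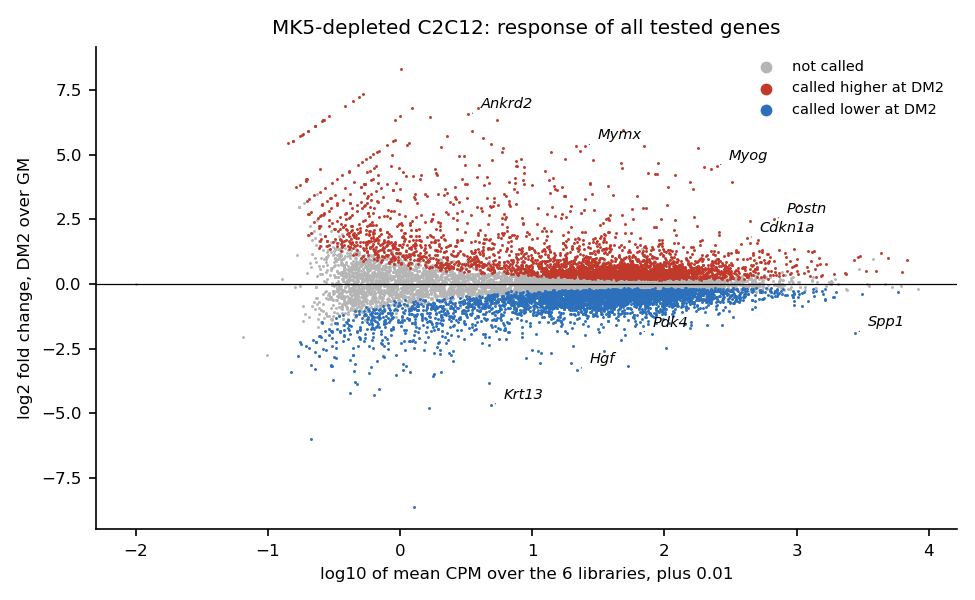
Log2 fold change (DM2 over GM) of each tested gene against the log10 of its mean CPM over the 6 MK5-depleted libraries plus 0.01, with 3425 genes called higher in red and 3451 called lower in blue. The largest changes, past 8-fold, are mostly upward.

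Contractile genes had the highest median fold change of the 38 gene lists examined. The count of each list stands beside 24.6% called higher and 24.8% called lower over all tested genes. Of 48 tested genes of the sarcomere, the repeating unit of the myofibril, 44 rose and 1 fell, with a median log2 fold change of 3.66, beside 0.00 over all tested genes. Tnnc2, the calcium-binding troponin of fast muscle, had 138, 103 and 168 CPM at DM2, against 5.19, 1.698 and 3.06 CPM in GM, with every DM2 library far above every GM library (log2 fold change 5.33 ± 0.28, edgeR adjusted p = 5.38e-10). Myh3, embryonic myosin heavy chain, had 322, 229 and 491 CPM at DM2, against 14.02, 4.61 and 8.33 CPM in GM (log2 fold change 5.26 ± 0.43, edgeR adjusted p = 1.76e-07). Myl1, an essential myosin light chain, rose by 4.69 ± 0.32 on the log2 scale. Tpm3, a tropomyosin also made in non-muscle cells, was the member that fell (log2 fold change -0.31 ± 0.08, edgeR adjusted p = 0.00459). DM2 library 3 was the highest of the 3 for Myog, Tnnc2, Myh3 and Myl1, and library 2 the lowest. Sarcomere genes took 0.971, 0.800 and 1.23% of all TPM at DM2, against 0.451, 0.414 and 0.406% in GM.

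Genes of sarcomere assembly and of fusion mostly rose too. Of 17 chaperones and assembly proteins of the sarcomere, 14 rose and 1 fell (median log2 fold change 2.31). Klhl40, which stabilises thin filaments, had 14.3, 14.6 and 15.2 CPM at DM2, against 0.6698, 0.631 and 0.527 CPM in GM (log2 fold change 4.57 ± 0.32, edgeR adjusted p = 4.93e-09). Unc45b, the myosin chaperone, had 11.8, 9.17 and 20.7 CPM at DM2, against 1.21, 0.437 and 0.738 CPM in GM (log2 fold change 4.09 ± 0.39, edgeR adjusted p = 2.59e-07). The ubiquitin ligases Trim54 and Trim63 rose by 3.93 and 3.85, whereas Fkbp5, a glucocorticoid-responsive immunophilin, fell (-0.55).

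Of 25 genes of cell adhesion and fusion, 13 rose and 4 fell (median 0.52). Both muscle-specific fusogens rose. Mymx (chromosome 17, 45600971 to 45602102, minus strand), myomixer, had 52.9, 39.1 and 55.6 CPM at DM2, against 1.80, 0.825 and 0.896 CPM in GM (log2 fold change 5.35 ± 0.23, edgeR adjusted p = 4.49e-11). Mymk (chromosome 2, 27061636 to 27072179, minus strand), myomaker, had 119, 87.1 and 225 CPM at DM2, against 12.4, 4.17 and 5.27 CPM in GM, with DM2 library 3 the highest at DM2 and library 1 the highest in GM (log2 fold change 4.28 ± 0.47, edgeR adjusted p = 4.33e-06, and 4.93 without GM library 1). Cav3, the muscle caveolin, rose by 4.13 ± 0.38, and Tmem182, a muscle membrane protein, by 3.16 ± 0.46, or 4.09 without GM library 1. The 4 that fell were Gsdme (-0.82), the guanine exchange factors Dock1 (-0.52) and Dock5 (-0.46), and Anxa1 (-0.51), an annexin of membrane repair. Without DM2 libraries 1 and 2 the count called lower was 2, and Dock1, Dock5 and Anxa1 were not called.

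Among 22 myogenic transcription factors and cofactors, 12 rose and 2 fell (median 0.31). Besides Myog, Mef2c, a MADS-box partner of myogenin, had 3.65, 2.02 and 2.37 CPM at DM2, against 0.251, 0 and 0.211 CPM in GM (log2 fold change 4.04 ± 0.59, edgeR adjusted p = 2.99e-05, and 4.63 without GM library 1). Tead4, a TEAD factor switched on by myogenic factors, had 23.9, 17.6 and 34.8 CPM at DM2, against 7.95, 8.06 and 9.39 CPM in GM (log2 fold change 1.59 ± 0.19, edgeR adjusted p = 3.56e-06). Tcf4, an E protein, rose by 0.95 ± 0.21, but was not called without DM2 libraries 1 and 2 (0.50, edgeR adjusted p = 0.156). Myod1, the determination factor, which was added after its values were seen and not by the naming rule, had 176, 188 and 210.3 CPM at DM2, against 129.8, 94.1 and 109 CPM in GM (log2 fold change 0.79 ± 0.13, edgeR adjusted p = 8.21e-05). Eya1, a cofactor of homeodomain factors, fell (log2 fold change -0.50 ± 0.11, edgeR adjusted p = 0.00144). Of 17 repressors of myogenesis, 8 rose and 4 fell. Those that fell include 3 of the Id proteins, which sequester E proteins: Id3 had 76.6, 125 and 116 CPM at DM2, against 325, 304 and 323 CPM in GM (log2 fold change -1.59 ± 0.17, edgeR adjusted p = 1.20e-06), Id2 had 22.4, 26.5 and 25.4 CPM at DM2, against 59.8, 51.5 and 72.9 CPM in GM (log2 fold change -1.31 ± 0.16, edgeR adjusted p = 3.34e-06), and Id1 fell by little (-0.50). Heyl, a Notch-induced repressor, rose (1.95 ± 0.16), as did Msc (1.72 ± 0.35), musculin, and Hes1 (1.34 ± 0.13).

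Of 32 genes of calcium handling and the triad, 24 rose and 2 fell (median 2.00). Cacna1s, the voltage sensor of the transverse tubule, had 16.1, 10.9 and 21.7 CPM at DM2, against 1.38, 0.485 and 1.42 CPM in GM (log2 fold change 3.88 ± 0.34, edgeR adjusted p = 7.54e-08), and Ryr1, the calcium release channel it gates, had 27.7, 21.8 and 33.2 CPM at DM2, against 3.60, 1.12 and 1.69 CPM in GM (log2 fold change 3.65 ± 0.28, edgeR adjusted p = 1.91e-08, and 4.30 without GM library 1). Casq2, a calcium-storing protein, had 43.97, 35.7 and 75.3 CPM at DM2, against 5.61, 1.41 and 3.37 CPM in GM (log2 fold change 3.87 ± 0.40, edgeR adjusted p = 1.41e-06). The members that fell were Kcnj2, an inward rectifier potassium channel (log2 fold change -1.73 ± 0.16, edgeR adjusted p = 1.53e-07), and Asph (-0.68). Of 25 genes of the neuromuscular synapse and the dystrophin complex, 18 rose and 1 fell (median 1.06). Dok7, the cytoplasmic activator of MuSK, had 32.3, 21.4 and 42.3 CPM at DM2, against 4.02, 2.33 and 2.64 CPM in GM (log2 fold change 3.40 ± 0.31, edgeR adjusted p = 1.45e-07). Erbb3 rose by 3.08 ± 0.36, and Colq, the collagen tail of acetylcholinesterase, by 2.71 ± 0.35. Sgcd, delta-sarcoglycan, fell (-0.91).

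Genes of muscle energy supply split, with 10 of 26 called higher and 10 lower (median -0.10). Ckm, muscle creatine kinase, had 51.3, 38.3 and 78.6 CPM at DM2, against 3.14, 1.41 and 1.37 CPM in GM (log2 fold change 4.79 ± 0.32, edgeR adjusted p = 4.06e-09). Cox6a2, a muscle isoform of a cytochrome oxidase subunit, rose by 5.65 ± 0.33, and Pgam2, muscle phosphoglycerate mutase, by 3.67 ± 0.36. In the other direction, Pdk4, which inhibits pyruvate dehydrogenase and is a FoxO target, had 25.4, 31.5 and 26.3 CPM at DM2, against 96.2, 100.1 and 113 CPM in GM (log2 fold change -1.90 ± 0.12, edgeR adjusted p = 1.74e-09). Ldhb (-0.92) and Adssl1 (-0.96) also fell. So did Actr3b (-0.94), an actin-related protein that the list and its counts include although it is not an energy enzyme. Without DM2 libraries 1 and 2, 6 members were called lower, and Actr3b was not. Of 15 splicing regulators, 6 rose and 5 fell. Rbm24, which promotes muscle exons, had 28.3, 29.7 and 35.7 CPM at DM2, against 3.47, 1.12 and 2.21 CPM in GM (log2 fold change 3.75 ± 0.33, edgeR adjusted p = 1.03e-07). Mbnl3, the Muscleblind-like protein of undifferentiated cells, had 2.71, 2.62 and 2.53 CPM at DM2, against 7.87, 8.299 and 10.2 CPM in GM (log2 fold change -1.74 ± 0.19, edgeR adjusted p = 1.26e-06). Without GM library 3, 3 of these 15 genes were called lower.

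**Figure D3:**
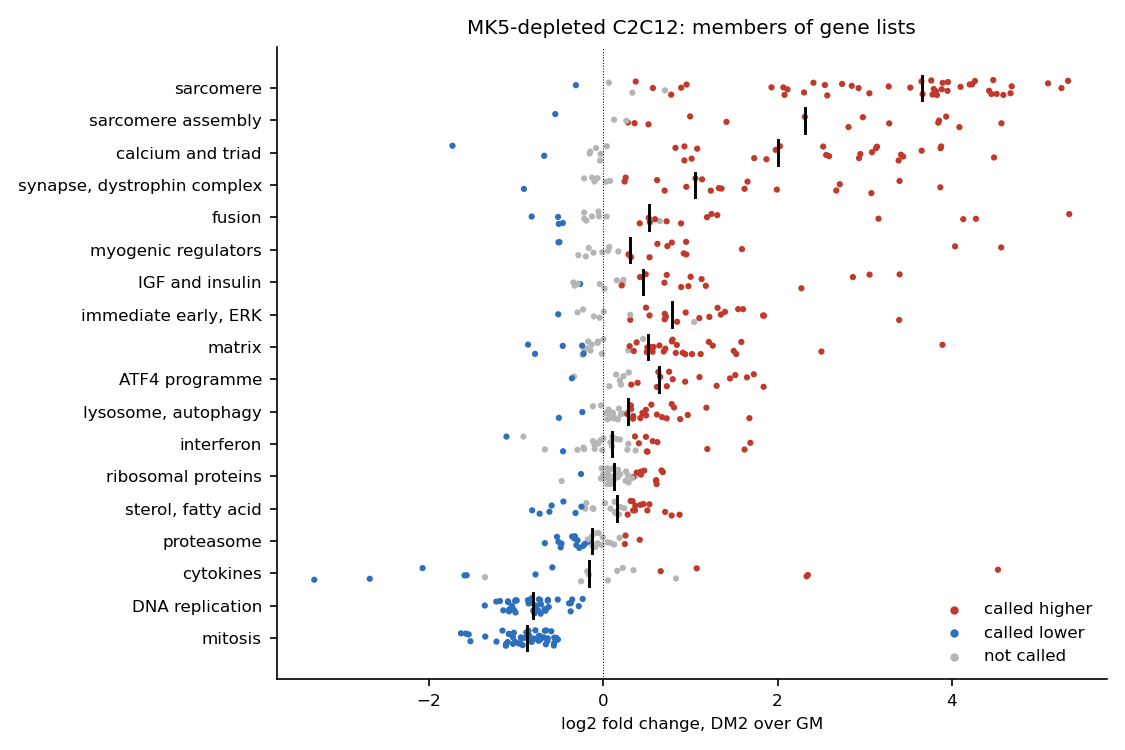
Log2 fold change (DM2 over GM) of the tested members of 18 gene lists in the MK5-depleted line; red points are called higher, blue called lower, grey not called, and black ticks are medians. Sarcomere genes have the highest median (3.66), and all members of the DNA replication and mitosis lists are called lower, with medians of -0.81 and -0.87.

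Every tested gene of the replication and mitosis lists fell, but by modest factors. All 40 DNA replication genes were called lower (median log2 fold change -0.81) and all 44 mitotic genes (median -0.87), beside 24.8% called lower among all tested genes. In the control line these medians were -0.73 and -0.96. The difference from the control line's response was called positive for 2 and negative for 3 of the 40 replication genes. For the 44 mitotic genes it was called positive for 3 and negative for none. Over all tested genes 8.54% were positive and 9.48% negative. The median differences were -0.03 and 0.11, against 0.88 for Mki67. Mcm4, a subunit of the replicative helicase, had 54.3, 47.9 and 62.6 CPM at DM2, against 156, 116 and 150.1 CPM in GM (log2 fold change -1.36 ± 0.18, edgeR adjusted p = 7.91e-06). Pcna, the sliding clamp, had 43.97, 42.5 and 70.8 CPM at DM2, against 125, 107 and 126 CPM in GM (log2 fold change -1.18 ± 0.25, edgeR adjusted p = 9.49e-04). Bub1, a kinase of the spindle checkpoint, had 35.7, 29.7 and 35.4 CPM at DM2, against 107, 89.1 and 117 CPM in GM (log2 fold change -1.63 ± 0.24, edgeR adjusted p = 3.86e-05), and Anln, the anillin of the cleavage furrow, had 82.8, 70.6 and 87.8 CPM at DM2, against 244, 204 and 271 CPM in GM (log2 fold change -1.58 ± 0.24, edgeR adjusted p = 4.43e-05). Bub1 had the lowest log2 fold change of either list. With DM2 libraries 1 and 2 left out, 31 of 40 and 34 of 44 were called lower. Pcna was then not called (-0.73, edgeR adjusted p = 0.120).

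Cdk1 and Ccnb1, the kinase and cyclin that drive mitotic entry, are shown with their promoters, because CCAAT boxes and the sequence TTTGAA, the cell cycle homology region bound by the DREAM complex, are common in this class. Cdk1 had 155, 121 and 157 CPM at DM2, against 249.5, 219.6 and 244 CPM in GM (log2 fold change -0.72 ± 0.17, edgeR adjusted p = 0.00187), and without DM2 libraries 1 and 2 it was not called (-0.58, edgeR adjusted p = 0.0889). Ccnb1 had 62.03, 47.3 and 39.2 CPM at DM2, against 74.1, 76.7 and 85.3 CPM in GM (log2 fold change -0.67 ± 0.19, edgeR adjusted p = 0.00847). Capitals mark CCAAT or ATTGG and TTTGAA or TTCAAA.
Cdk1 upstream 250 bases (RefSeq, GRCm38.p6, chr10:69352913-69353162, minus strand): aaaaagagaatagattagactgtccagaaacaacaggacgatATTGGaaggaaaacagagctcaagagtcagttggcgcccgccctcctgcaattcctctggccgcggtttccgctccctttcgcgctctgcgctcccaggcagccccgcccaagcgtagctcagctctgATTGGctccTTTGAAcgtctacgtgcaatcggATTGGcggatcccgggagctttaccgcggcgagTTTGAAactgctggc
Ccnb1 upstream 250 bases (RefSeq, GRCm38.p6, chr13:100786487-100786736, minus strand): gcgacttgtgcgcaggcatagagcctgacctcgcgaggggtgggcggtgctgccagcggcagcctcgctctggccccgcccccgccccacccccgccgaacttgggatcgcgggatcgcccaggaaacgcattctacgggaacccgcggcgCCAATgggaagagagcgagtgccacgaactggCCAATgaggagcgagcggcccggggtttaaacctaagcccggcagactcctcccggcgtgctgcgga
The Cdk1 window holds 3 CCAAT matches and 2 TTTGAA matches, and the Ccnb1 window holds 2 CCAAT matches and none of TTTGAA. In the mitosis list, 17 of the 36 promoters with a window (47.2%) hold 2 or more CCAAT matches, beside 10.5% of all windows, and 10 (27.8%) hold TTTGAA, beside 16.3%. In the sarcomere list 1 of 41 (2.44%) holds 2 or more CCAAT matches and 3 (7.32%) hold TTTGAA. Over the tested genes with a window these shares were 13.6% and 10.2%.

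Of 16 tested regulators of the G1 phase, 4 rose and 6 fell, beside 24.6% called higher and 24.8% called lower over all tested genes, so the share that rose was near that background. Ccnd1, cyclin D1, had 133, 128 and 107 CPM at DM2, against 222, 236 and 256 CPM in GM (log2 fold change -0.96 ± 0.12, edgeR adjusted p = 5.11e-06), whereas Ccnd3, the cyclin D of differentiating muscle, had 330.3, 287 and 351 CPM at DM2, against 157, 142 and 137 CPM in GM (log2 fold change 1.15 ± 0.09, edgeR adjusted p = 2.44e-08). Ccnd2 (0.86), Myc (0.71) and E2f2 (1.25) rose, and Ccne2 (-1.65), E2f7 (-1.04) and Skp2 (-0.69) fell. Of 17 inhibitors and pocket proteins 7 rose and 8 fell. Cdkn1a, the p21 inhibitor that accompanies cell cycle exit, had 699.5, 599 and 669.9 CPM at DM2, against 184, 209 and 183 CPM in GM, with no overlap (log2 fold change 1.77 ± 0.09, edgeR adjusted p = 1.57e-10). Cdkn1c (1.62), Gadd45a (1.35) and Gadd45g (1.13) rose. Rbl1 (-1.24), the p107 pocket protein of cycling cells, fell, as did Ccng2 (-1.03).

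Growth factor genes rose in the insulin-like family. Of 24 IGF and insulin pathway genes, 14 rose and 1 fell (median 0.46). The ligand Igf2 had 174, 154 and 237 CPM at DM2, against 31.9, 13.1 and 22.7 CPM in GM (log2 fold change 3.06 ± 0.30, edgeR adjusted p = 6.45e-07), and the ligand Igf1 had 58.0, 62.1 and 41.7 CPM at DM2, against 13.7, 9.75 and 9.86 CPM in GM (log2 fold change 2.27 ± 0.19, edgeR adjusted p = 3.97e-08). The binding proteins Igfbp4 (3.40 ± 0.20) and Igfbp3 (2.86 ± 0.21) rose. The member called lower was Igfbp7, which was not called without DM2 library 1, GM library 1 or GM library 2, nor without DM2 libraries 1 and 2. Of 26 immediate early and ERK feedback genes, 18 rose and 1 fell (median 0.78), 2 falling without DM2 library 2 or without DM2 libraries 1 and 2. Spry1, an inhibitor of receptor tyrosine kinase signalling, had 33.4, 28.2 and 35.0 CPM at DM2, against 4.23, 2.33 and 2.48 CPM in GM (log2 fold change 3.40 ± 0.18, edgeR adjusted p = 3.49e-10). Atf3 (1.84), Spry4 (1.83) and the phosphatase Dusp1 (1.60) rose, and Fosl1 (-0.52) fell. Of 16 Notch pathway genes, 9 rose and 3 fell. The ligand Dll1 had 30.1, 28.99 and 45.7 CPM at DM2, against 5.902, 3.30 and 3.797 CPM in GM (log2 fold change 2.99 ± 0.23, edgeR adjusted p = 2.25e-08). Hes6, which antagonises Hes1, rose (1.42), and Lfng (-1.17) fell, as did Nrarp and the ligand Jag2, which were not called without DM2 libraries 1 and 2.

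Of 27 TGF-beta and BMP genes, 10 rose and 6 fell. The BMP antagonist Nog (1.79), the activin subunit Inhbb (1.69) and the activin antagonist Fst (1.35) rose, and Smad9 (-1.72), Ltbp2 (-0.91) and Smad6 (-0.90) fell. Of 21 cytokines and growth factors, 5 rose and 7 fell. Fgf21, a myokine, had 14.5, 12.2 and 23.6 CPM at DM2, against 1.005, 0.534 and 0.5801 CPM in GM (log2 fold change 4.53 ± 0.41, edgeR adjusted p = 1.12e-07). Lif (2.35) rose too. Hgf, the ligand of Met, had 2.04, 5.08 and 4.84 CPM at DM2, against 36.6, 36.1 and 46.8 CPM in GM (log2 fold change -3.31 ± 0.33, edgeR adjusted p = 4.85e-07), and the chemokines Cxcl5 (-2.68, or -3.48 without DM2 library 2), Cxcl1 (-2.07) and Cxcl12 (-1.59) fell.

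Matrix genes rose beside markers that fibroblasts share. Of 45 collagens and other matrix genes, 28 rose and 5 fell (median 0.51). Without GM library 1, and without DM2 libraries 1 and 2, 3 were called lower. Postn, periostin, had 1263, 1134 and 1068 CPM at DM2, against 238, 159 and 214 CPM in GM (log2 fold change 2.504 ± 0.20, edgeR adjusted p = 2.79e-08). Dcn, the proteoglycan decorin, had 41.04, 74.1 and 38.8 CPM at DM2, against 3.098, 4.46 and 2.79 CPM in GM (log2 fold change 3.89 ± 0.36, edgeR adjusted p = 2.95e-07). Fbn1, fibrillin, rose by 1.53 ± 0.14 and Lama4, a laminin chain, by 1.58 ± 0.14, while the crosslinking enzyme Lox had 844, 895 and 616 CPM at DM2, against 1308, 1488 and 1482 CPM in GM (log2 fold change -0.86 ± 0.12, edgeR adjusted p = 1.02e-05), and Col18a1 fell (-0.78). Of 20 genes that YAP and SRF switch on, 10 rose and 4 fell. Ccn1 (1.58), Ankrd1 (1.26) and Ccn2 (1.17) rose. Axl (-0.42) fell, and 2 members fell without DM2 library 1, DM2 library 2 or GM library 1, and 1 without DM2 libraries 1 and 2.

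Markers of other cell types were examined, since a line can hold several kinds of cell. Of 10 tested fibroblast markers 7 rose and 2 fell. Their summed level was 1207 to 1265 CPM at DM2, against 881 to 967 CPM in GM, and Thy1 was at most 3 counts in every library. Mfap5 had 69.9, 58.9 and 64.2 CPM at DM2, against 13.7, 9.61 and 11.7 CPM in GM (log2 fold change 2.46 ± 0.18, edgeR adjusted p = 6.66e-09), whereas Ly6a (-1.47) and Pdgfra (-1.40) fell. Their part in the matrix result was not tested. Of 6 smooth muscle markers 4 rose and none fell, with sums of 9289 to 11136 CPM at DM2 and 6459 to 7615 CPM in GM. Most of that sum is Acta2 and Des, which muscle cells also express, and Myocd and Rgs5 were at most 3 counts in every library. Of 16 satellite and reserve cell markers 9 rose and 4 fell, 2 without DM2 library 1, GM library 3 or both DM2 libraries 1 and 2, with sums of 1780 to 1995 CPM at DM2 and 1098 to 1271 CPM in GM, and Calcr and Chrdl2 were at 0. Sox8 rose by 2.52 ± 0.21, and Cd34 (-0.61) and Met (-0.54) fell.

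Adipocyte markers summed to 49.3 to 66.2 CPM at DM2 and 72.7 to 86.9 CPM in GM, with Adipoq, Plin1, Cidec and Cfd at 0, and 2 of 5 tested fell. Bone and cartilage markers summed to 1221 to 1347 CPM at DM2 and 4392 to 4614 CPM in GM. Nearly all of that is Spp1, osteopontin, which had 1217, 1207 and 1129.7 CPM at DM2, against 4315, 4512 and 4272 CPM in GM (log2 fold change -1.88 ± 0.14, edgeR adjusted p = 1.11e-08), and Ibsp and Acan were at 0. Of 5 tested in that list 2 fell. Immune and endothelial markers summed to 3.00 to 3.59 CPM at DM2 and 1.76 to 2.67 CPM in GM, with Adgre1, Cd3e and Emcn among those at 0. Of 3 tested 2 rose, and 1 without DM2 library 2, GM library 1, GM library 3 or DM2 libraries 1 and 2. Neuronal and glial markers summed to 196 to 236 CPM at DM2 and 249 to 285 CPM in GM, with Snap25 and Sox10 at 0. In that list 1 of 7 rose, and none without GM library 3 or DM2 libraries 1 and 2, while 1, Stmn2, fell (-1.08).

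Most genes of the amino acid response were called higher. Of 24 genes that ATF4 switches on, 16 rose and 1 fell (median 0.64). Chac1, which degrades glutathione, had 52.9, 48.97 and 54.5 CPM at DM2, against 16.2, 13.2 and 14.1 CPM in GM (log2 fold change 1.84 ± 0.17, edgeR adjusted p = 1.07e-07). Trib3, a pseudokinase, had 42.9, 27.7 and 26.3 CPM at DM2, against 10.9, 7.28 and 11.1 CPM in GM (log2 fold change 1.73 ± 0.25, edgeR adjusted p = 2.53e-05). Ddit3, which encodes CHOP, rose by 1.65 ± 0.18, and Ddit4, an inhibitor of mTORC1, fell (-0.36). Of 24 endoplasmic reticulum chaperones and sensors, 5 rose and 9 fell. Herpud1 (0.68) and Atf6 (0.63) rose, and Hsp90b1 (-0.67), Pdia6 (-0.65) and Edem1 (-0.54) fell. Of 25 p53 targets, 8 rose and 8 fell, 5 without DM2 library 1. Pmaip1, Noxa, rose (1.71), and Polk (-0.60) fell.

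Of 31 tested FoxO targets, 10 rose and 11 fell, beside 24.6% called higher and 24.8% called lower over all tested genes. Their median log2 fold change was 0.04, or -0.08 without DM2 libraries 1 and 2. Trim63, MuRF1, had 5.52, 5.19 and 7.26 CPM at DM2, against 0.4605, 0.3397 and 0.422 CPM in GM (log2 fold change 3.85 ± 0.25, edgeR adjusted p = 1.73e-09), and Bcl6 (1.28) and Plxna2 (1.06) rose. Pdk4, Txnip (-1.21) and Sesn1 (-0.57) fell.

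Of 37 genes of lysosomes and autophagy, 19 rose and 2 fell (median 0.28). Map1lc3a, an LC3 protein of autophagosomes, had 292, 310.2 and 253 CPM at DM2, against 87.7, 106 and 73.6 CPM in GM (log2 fold change 1.68 ± 0.19, edgeR adjusted p = 1.28e-06). The lysosomal enzymes Ctsd (1.18), Ctsa (0.97) and Hexa (0.88) rose. Of 31 proteasome subunits, 3 rose and 14 fell (median -0.13), 9 without DM2 library 1, 8 without DM2 library 2 and 3 without both. Psmd1 had 178, 159 and 186 CPM at DM2, against 291, 252 and 288 CPM in GM (log2 fold change -0.67 ± 0.08, edgeR adjusted p = 3.83e-06). With RSEM expected counts its log2 fold change was -0.26 and it was not called (edgeR adjusted p = 0.0564). Of 32 sterol and fatty acid genes, 13 rose and 7 fell. Mvd (0.79) and Cyp51 (0.71) rose, and Srebf1 (-0.73) fell. Without DM2 library 1, 8 rose, and the number that fell was 3 without GM library 1 and 2 without GM library 3. Without DM2 libraries 1 and 2, 2 rose and 3 fell, Mvd and Cyp51 not being called. Of 44 nuclear genes of the respiratory chain and citric acid cycle, 7 rose and 13 fell. Uqcrq (0.81) rose, and Ndufs1 (-0.85), Sdha (-0.60) and Atp5b (-0.59) fell. Without DM2 libraries 1 and 2, 4 of these rose and 4 fell, Atp5b not being called, and 4 rose without GM library 3. With the trend over gene length and GC content removed, 3 rose and 22 fell.

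Of 9 tested genes of the mitochondrial genome, 6 were called higher with a median of 1.22, but this rested on DM2 libraries 1 and 2. The gene mt-Nd4 had 1743, 1806 and 580.1 CPM at DM2, against 562, 643 and 433 CPM in GM (log2 fold change 1.33 ± 0.40, edgeR adjusted p = 0.0133), so that DM2 library 3 lay within the range of the GM libraries. Without GM library 3 mt-Nd4 was not called (1.19, edgeR adjusted p = 0.0587). Without DM2 library 1 or without DM2 library 2, 1 gene was called, without both, none, with a median of -0.49, and 2 without GM library 1 or GM library 3. The nuclear long non-coding RNA Malat1 had the same DM2 libraries high, with 2606, 2502 and 496 CPM at DM2, against 86.1, 271 and 315 CPM in GM (log2 fold change 3.06 ± 0.70, edgeR adjusted p = 0.00216, and 1.17 with an adjusted p of 0.267 without both).

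The 12 genes rising most, of those with at least 5 CPM at DM2 and no overlap, hold muscle genes and others. Ankrd2, a titin-binding stress sensor of the muscle nucleus, had 6.57, 4.59 and 8.37 CPM at DM2, against 0.126, 0.0485 and 0 CPM in GM, the GM libraries holding at most 3 counts each, so no fold is given. Adora1, the adenosine A1 receptor, had 13.1, 10.4 and 8.42 CPM at DM2, against 0.209, 0.0485 and 0.105 CPM in GM (log2 fold change 6.33 ± 0.41, edgeR adjusted p = 1.93e-09, and 7.01 without GM library 1). With RSEM expected counts its log2 fold change was 5.17. Cilp, a matrix protein known from cartilage, had 62.1, 98.7 and 128 CPM at DM2, against 1.67, 1.698 and 1.27 CPM in GM (log2 fold change 5.94 ± 0.41, edgeR adjusted p = 1.61e-08). Ablim3, an actin-binding LIM protein, rose by 5.90 ± 0.36, or 6.92 without GM library 1, Smim5, a small membrane protein, by 5.39 ± 0.33, Colec10, a collectin, by 5.31 ± 0.72, and Adamts17, a secreted protease, by 5.26 ± 0.32. Fndc5, the precursor of irisin, had 46.3, 37.9 and 49.4 CPM at DM2, against 2.05, 0.631 and 1.002 CPM in GM (log2 fold change 5.13 ± 0.28, edgeR adjusted p = 5.56e-10, and 5.77 without GM library 1). The other 4 are Cox6a2, Mymx, Tnnc2 and Myh3, given above.

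The 12 falling most changed by less. Krt13, a keratin, had 0.221, 0.382 and 0.474 CPM at DM2, against 8.12, 12.4 and 7.804 CPM in GM (log2 fold change -4.68 ± 0.30, edgeR adjusted p = 1.73e-09). Lgr6, an R-spondin receptor, had 0.497, 0.273 and 1.05 CPM at DM2, against 7.87, 9.27 and 9.07 CPM in GM (log2 fold change -3.82 ± 0.27, edgeR adjusted p = 5.19e-09, and -4.50 without DM2 library 3). Without DM2 libraries 1 and 2 its log2 fold change was -3.03. Car8 (-3.16), the acyl-CoA synthetase Acsbg1 (-3.05) and Apln (-3.05), the peptide apelin, fell, as did Ptprn (-2.85), Plekhg4 (-2.69), the ligand Wnt10b (-2.59), the sialomucin Cd24a (-2.58) and the cytidine deaminase Cda (-2.55). Hgf and Cxcl5, given above, complete the 12.

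The 15 genes with the highest mean TPM held 12.3% of all TPM at DM2 and 10.1% in GM. Tmsb10, an actin-sequestering thymosin, had a mean of 9157 ± 520.3 TPM at DM2 and 6084 ± 455 TPM in GM (SD, n = 3 each), and rose in counts (log2 fold change 0.74 ± 0.13, edgeR adjusted p = 1.14e-04). Vim, vimentin, had a mean of 3485 ± 325 TPM at DM2 and 5279.7 ± 378 TPM in GM (SD, n = 3 each), and fell in counts (log2 fold change -0.33 ± 0.09, edgeR adjusted p = 0.00633). Eef1a1, the elongation factor, had a mean of 8239 ± 779 TPM at DM2 and 9602 ± 47.6 TPM in GM (SD, n = 3 each), and was not called (log2 fold change -0.13 ± 0.08, edgeR adjusted p = 0.198). Acta2, an actin of immature muscle too, had a mean of 4636 ± 939.7 TPM at DM2 and 3751 ± 279 TPM in GM (SD, n = 3 each), and rose by 0.46 ± 0.11.

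The response was then set against that of the control line, which shares no library with it. The contrast asks whether a gene changed differently in the 2 lines, and 2512 genes (18%) were called, 1190 with a higher DM2 over GM ratio in the MK5-depleted line (8.54%) and 1322 with a lower one (9.48%). Across the 13939 genes the 2 responses had a Pearson r of 0.718, as a description across genes, which are not independent. Called in the same direction in both lines were 1871 genes that rose and 1802 that fell, which is 53.4% of the MK5-depleted line's calls and 57.8% of the control line's. A further 91 genes rose in the MK5-depleted line and fell in the control line, and 111 did the reverse. Of the 3001 genes called in the MK5-depleted line and not in the control line, the difference was called for 1022.

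**Figure D4:**
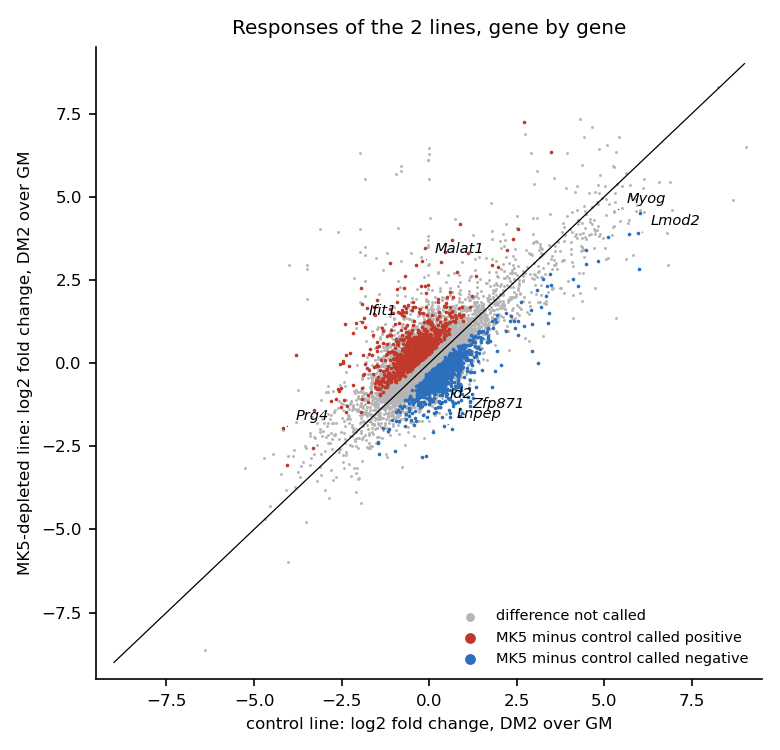
Log2 fold change (DM2 over GM) in the MK5-depleted line against that in the control line for each tested gene, with the diagonal in black. Red points have a called positive difference (1190 genes) and blue points a called negative one (1322 genes).

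These counts depend on single libraries. Without MK5-depleted DM2 library 1, 987 differences were called, without GM library 1, 1168, and without GM library 3, 879. Without control DM2 library 1, 2 or 3 the counts were 1656, 1282 and 1466, and without control GM library 2, 1032. Without both MK5-depleted DM2 libraries 1 and 2 there were 190, and with each library's trend over gene length and GC content removed 1066. On log2(TPM + 1), which was fitted without TMM scaling, 384 were positive and 2614 negative.

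Most genes of the sarcomere list had no called difference of response. In that list 2 differences were positive and 4 negative of 48, beside 8.54% positive and 9.48% negative over all tested genes, and the median log2 fold change was 3.66 in the MK5-depleted line and 3.85 in the control line. The 4 were between 0 and 1 without MK5-depleted DM2 library 1 or 2, GM library 1 or 3, control DM2 library 2 or 3, or control GM library 2 or 3, and 2 without control DM2 library 1. They were 6 without MK5-depleted DM2 library 3, and 5 without MK5-depleted GM library 2 or control GM library 1. Lmod2, a thin filament nucleator, had 8.396, 5.68 and 12.6 CPM at DM2, against 0.963, 0.437 and 0.316 CPM in GM in the MK5-depleted line and 22.5, 24.03 and 24.97 CPM at DM2, against 0.480, 0.351 and 0.3004 CPM in GM in the control line (difference -2.07 ± 0.61, edgeR adjusted p = 0.0293). Without MK5-depleted GM library 1 that difference was -1.44, with an edgeR adjusted p of 0.193. It was also not called without MK5-depleted DM2 library 1, control DM2 library 2 or 3, or control GM library 2 or 3, nor without MK5-depleted DM2 libraries 1 and 2 (-1.56, edgeR adjusted p = 0.130) or with RSEM expected counts (-1.84, edgeR adjusted p = 0.0793). In the list of myogenic regulators none was positive and 7 negative of 22, 4 without MK5-depleted DM2 library 1 and none without DM2 libraries 1 and 2. In the list of the neuromuscular synapse and the dystrophin complex none was positive and 9 negative of 25 (median -0.49). Negative differences were 11 without MK5-depleted DM2 library 3, and 12 without MK5-depleted GM library 2 or control GM library 1. The 9 were 3 or 4 without MK5-depleted DM2 library 1, GM library 1 or 3, control DM2 library 2 or 3, or control GM library 2 or 3, and none without MK5-depleted DM2 libraries 1 and 2. Tead4 had a difference of -1.31 ± 0.27, edgeR adjusted p = 0.00862, or -0.85 with an edgeR adjusted p of 0.0774 without those 2 libraries. Pdk4 (-1.20), Mbnl3 (-1.36) and Psmd1 (-0.84) also had called negative differences. The Mbnl3 difference was -1.40 and not called without DM2 libraries 1 and 2 (edgeR adjusted p = 0.0609), and with RSEM expected counts the Psmd1 difference was -0.42 and not called (edgeR adjusted p = 0.0665).

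Of the Id genes, Id2 and Id3 had called differences between the lines and Id1 did not. Id2 fell in the MK5-depleted line, as given above, but had 42.1, 44.8 and 45.6 CPM at DM2, against 42.5, 32.1 and 37.9 CPM in GM in the control line, where it was not called (difference -1.55 ± 0.22, edgeR adjusted p = 0.00163). Id3 fell in both lines, with 174, 200.4 and 169.9 CPM at DM2, against 293, 259 and 265 CPM in GM in the control line (log2 fold change -0.58, difference -1.001 ± 0.24, edgeR adjusted p = 0.0136). With DM2 libraries 1 and 2 left out, the Id3 difference was -0.86 and not called (edgeR adjusted p = 0.0811). The Id1 difference was -0.16 ± 0.15, edgeR adjusted p = 0.472.

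Interferon-stimulated genes differed in 1 direction. Of 33 tested, 22 differences were positive and none negative, with a median difference of 0.90, beside 0.01 over all tested genes. In the MK5-depleted line 10 rose and 2 fell (median 0.10), 6 rose without DM2 library 1 and 3 without DM2 libraries 1 and 2, whereas in the control line 1 rose and 24 fell, beside 22.5% of all tested genes called higher there and 23.1% lower. Ifit1, which binds RNA lacking the host cap mark, had 18.1, 17.03 and 11.2 CPM at DM2, against 8.37, 5.48 and 6.28 CPM in GM in the MK5-depleted line and 2.22, 1.44 and 1.82 CPM at DM2, against 5.07, 12.2 and 5.86 CPM in GM in the control line (difference 3.28 ± 0.49, edgeR adjusted p = 0.00233). Its own log2 fold change in the MK5-depleted line was 0.75 and not called without DM2 libraries 1 and 2 (edgeR adjusted p = 0.210). Isg15, a ubiquitin-like modifier, had 13.4, 9.94 and 11.6 CPM at DM2, against 9.25, 7.28 and 8.12 CPM in GM in the MK5-depleted line and 3.09, 3.11 and 2.73 CPM at DM2, against 6.72, 9.92 and 7.26 CPM in GM in the control line (difference 1.92 ± 0.24, edgeR adjusted p = 8.15e-04). Ifit3 rose by 1.69 ± 0.33 (difference 2.15, or 1.52 without control GM library 2), but without DM2 libraries 1 and 2 the difference was 1.80 and not called (edgeR adjusted p = 0.101), while Tap1 fell in both lines. The 22 were 11 without MK5-depleted DM2 library 1, 13 without GM library 1, 10 without GM library 3, 14 without any 1 control DM2 library and 9 without control GM library 2. On log2(TPM + 1) they were 5, with 1 negative difference and a median of 0.23. Without MK5-depleted DM2 libraries 1 and 2 they were 4, with a median of 0.91, and after removal of the length and GC trend 15, with a median of 0.81.

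**Figure D5:**
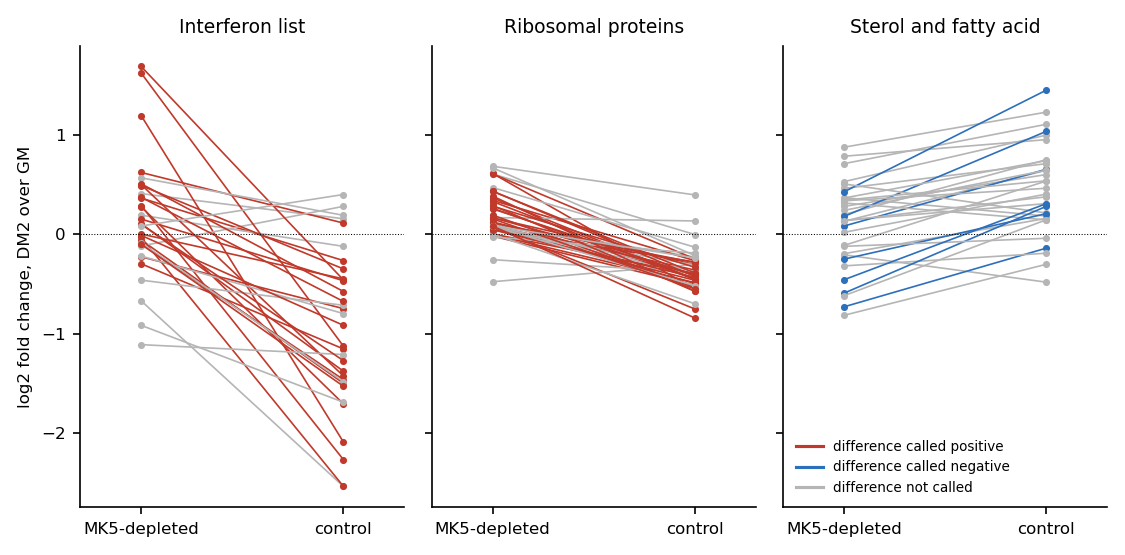
Log2 fold change (DM2 over GM) of each tested gene of 3 lists in the MK5-depleted line (left) and the control line (right), lines joining the same gene. Differences called positive (red) are 22 of 33 interferon and 28 of 43 ribosomal protein genes, and those called negative (blue) are 7 of 32 sterol and fatty acid genes.

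Ribosomal protein genes gave 28 positive differences and no negative one of 43. In the MK5-depleted line 10 rose and 1 fell (median 0.13), 2 to 5 rising without DM2 library 1, DM2 library 2, GM library 1 or GM library 3, and 3 without DM2 libraries 1 and 2. In the control line 1 rose and 29 fell (median -0.40). These are short genes, but whether gene length has a part in the difference was not tested. With log2(TPM + 1), 23 differences were positive and 1 negative, with a median of 0.32. After removal of the length and GC trend 1 difference was called and the median difference was 0.16, against 0.57 in the main fit. The response of the MK5-depleted line itself turned with that removal, 3 genes being called higher and 9 lower (median -0.05). The 28 were 12, 17 and 7 without MK5-depleted DM2 library 1, GM library 1 and GM library 3, and 16, 17 and 9 without control DM2 library 1, control DM2 library 2 and control GM library 2. Without MK5-depleted DM2 libraries 1 and 2 none was called, with a median difference of 0.505. Sterol and fatty acid genes gave 7 negative differences and no positive one of 32, 4 without MK5-depleted GM library 3, 12 without control GM library 1 and 1 without MK5-depleted DM2 libraries 1 and 2.

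Beyond the lists, the largest positive differences were in Kcnq1ot1, Malat1, Prg4, Pi16, Rab26os and Calml4, besides Ifit1 and Isg15. Kcnq1ot1, an imprinted antisense RNA, had 10.99, 11.96 and 2.89 CPM at DM2, against 0.419, 1.504 and 1.48 CPM in GM in the MK5-depleted line, DM2 libraries 1 and 2 being far higher than library 3. Prg4 and Kcnq1ot1 lost the call of a difference when any 1 of several libraries was left out, so no difference is given for them. Prg4, lubricin, had 1.66, 1.86 and 0.737 CPM at DM2, against 4.69, 6.36 and 5.43 CPM in GM in the MK5-depleted line and 1.21, 1.02 and 1.10 CPM at DM2, against 8.85, 33.1 and 17.8 CPM in GM in the control line. Pi16, a marker of universal fibroblasts, had 7.68, 8.299 and 8.95 CPM at DM2, against 0.6698, 1.02 and 0.844 CPM in GM in the MK5-depleted line and 5.99, 5.47 and 6.41 CPM at DM2, against 1.60, 4.04 and 2.603 CPM in GM in the control line (difference 2.20 ± 0.41, edgeR adjusted p = 0.00533). The largest negative differences were in Zfp871, Klhl11, Atp7a, Lnpep, Sntb1, Lcor, Uprt and Lmod2. Lnpep, an aminopeptidase that travels with the GLUT4 glucose transporter, had 6.08, 8.19 and 9.05 CPM at DM2, against 29.8, 21.7 and 35.1 CPM in GM in the MK5-depleted line and 35.2, 40.3 and 38.2 CPM at DM2, against 27.3, 27.5 and 30.04 CPM in GM in the control line (difference -2.31 ± 0.26, edgeR adjusted p = 6.82e-04). The zinc finger gene Zfp871 had 1.66, 1.64 and 3.95 CPM at DM2, against 7.12, 5.34 and 9.597 CPM in GM in the MK5-depleted line and 11.3, 11.4 and 10.5 CPM at DM2, against 6.67, 4.65 and 6.66 CPM in GM in the control line (difference -2.48 ± 0.44, edgeR adjusted p = 0.00441). DM2 library 3 had the highest level of the MK5-depleted DM2 libraries. The difference was -1.77 and not called without DM2 libraries 1 and 2 (edgeR adjusted p = 0.0633), nor was the log2 fold change of -0.88 in the MK5-depleted line (edgeR adjusted p = 0.110).

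Set against the ERK3-depleted line, which is depleted of the binding partner of MK5, no difference of response was called by edgeR (smallest adjusted p 0.233), nor by DESeq2 or limma-voom. At an unadjusted p under 0.05 there were 1017 of 13939. With no filter on low counts 95 were called positive and 184 negative, and without MK5-depleted DM2 libraries 1 and 2, 7 were called. A lack of calls does not show that the 2 depleted lines responded alike.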

How the data were processed

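Poly-A RNA from all 18 libraries was purified with Trizol and columns, and sequenced from stranded KAPA libraries, per the labels' protocols. The submitters' processing notes name STAR 2.5.1b, RSEM 1.2.28, bcl2fastq 2.17 and the build GRCm38. The deposited read count files have 3 count columns without column names, in the layout of STAR gene counts (unstranded, forward, reverse). The reverse column was used, which held 92.8 to 95.0% of stranded reads in the MK5-depleted libraries. Summary lines that name no gene, 24.1 to 29.4% of reads in those libraries, were left out. Per their file headers, the deposited RSEM tables gave the authors' expected counts, rounded here to whole numbers for an alternative, and TPM. Of 50600 gene identifiers 50376 matched GENCODE M21.

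Genes were tested with edgeR 4.0.16 (R 4.3.3), a quasi-likelihood fit over all 6 groups, TMM scaling and 12 residual degrees of freedom, with 13939 genes past edgeR's filter on low counts. The biological coefficient of variation was 0.11. Differences of response are interaction terms in that fit. limma 3.58.1 and DESeq2 1.42.0 were alternatives, limma also on log2(TPM + 1). The fit was also run on simulated counts with known changes planted in the MK5-depleted DM2 group. Noise was drawn independently for each library, so that run does not bear on the differences between DM2 libraries described above. Genes named in the text came from a rule: up to 4 rising and 4 falling called genes per list, the 12 with the largest changes each way, the 8 with the largest differences each way, the 15 of highest TPM and 6 called in opposite directions. Myod1 was added after its values were seen. The 38 gene lists and the members were chosen with earlier results of these data known. Whether the replicate numbers pair the MK5-depleted libraries could not be decided, and no 2 libraries agreed within sampling noise. Counts have no molecular identifiers, so duplicate reads made by amplification could not be told from separate molecules. Promoter windows are the 250 bases before each RefSeq gene start.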

Additional observations from a re-analysis of the deposited data

Results flagged for a closer look

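The genes below responded differently in the MK5-depleted line and the control line by the test of the difference itself, an interaction term with an edgeR adjusted p under 0.05, where values are the log2 response in the MK5-depleted line minus that in the control line. Positive differences were found for Ifit1 (3.28 ± 0.49, edgeR adjusted p = 0.00233), Pi16 (2.20 ± 0.41, edgeR adjusted p = 0.00533), Ifit3 (2.15 ± 0.48, edgeR adjusted p = 0.0106), Isg15 (1.92 ± 0.24, edgeR adjusted p = 8.15e-04) and Mki67 (0.88 ± 0.22, edgeR adjusted p = 0.0161). Beside Mki67, the median differences of the DNA replication and mitosis lists were -0.03 and 0.11.

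Negative differences were found for Zfp871 (-2.48 ± 0.44, edgeR adjusted p = 0.00441), Lnpep (-2.31 ± 0.26, edgeR adjusted p = 6.82e-04), Lmod2 (-2.07 ± 0.61, edgeR adjusted p = 0.0293), Id2 (-1.55 ± 0.22, edgeR adjusted p = 0.00163), Id3 (-1.001 ± 0.24, edgeR adjusted p = 0.0136), Mbnl3 (-1.36 ± 0.26, edgeR adjusted p = 0.00635), Tead4 (-1.31 ± 0.27, edgeR adjusted p = 0.00862), Pdk4 (-1.20 ± 0.17, edgeR adjusted p = 0.00134), Psmd1 (-0.84 ± 0.12, edgeR adjusted p = 0.00134) and Mapk6 (-0.72 ± 0.17, edgeR adjusted p = 0.0123). With RSEM expected counts the differences of Psmd1 (-0.42, edgeR adjusted p = 0.0665) and Lmod2 (-1.84, edgeR adjusted p = 0.0793) were not called. Without MK5-depleted DM2 libraries 1 and 2, those of Ifit3, Mki67, Zfp871, Lmod2, Id3, Mbnl3, Tead4 and Mapk6 were not called. Groups hold 3 libraries each, so no library was tested as lying apart from the others of its group.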

How the results depend on the processing

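For DM2 over GM in the MK5-depleted line, a test against a 1.5-fold change called 1467 genes (849 higher, 618 lower). Without DM2 libraries 1 and 2 there were 4375 (2238 higher, 2137 lower). On log2(TPM + 1) and log2(TPM + 0.1), 1718 and 1704 were higher. Leaving out 1 library gave 5689 to 6667 calls, 2794 to 3262 higher and 2772 to 3405 lower. Other alternatives stayed within 1.5 times the reported counts.

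For the difference from the control line, an adjusted p under 0.01 left 366 (147 positive, 219 negative), and the 1.5-fold test left 6 (4 and 2). Removing length and GC trends left 1066 (428 and 638). On log2(TPM + 1) 384 were positive and 2614 negative, and on log2(TPM + 0.1) 357 and 2321. Without MK5-depleted DM2 libraries 1 and 2 there were 190 (75 and 115). Leaving out 1 library gave 879 to 3008 (372 to 1381 positive, 481 to 1689 negative). For the difference from the ERK3-depleted line, no filter gave 279 (95 positive, 184 negative), and without MK5-depleted DM2 libraries 1 and 2 there were 7, all negative.

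Mapk6, not called, turned positive with trends removed (0.085, or 0.087 with the replicate block) and without DM2 libraries 1 and 2 (0.013). Leaving out 1 library gave -0.13 to 0.0056. The cause of these changes was not tested. In deviations from the group mean, same-numbered MK5-depleted libraries correlated at -0.07, 0.22 and -0.09. Pairs with unlike numbers ran from -0.29 to 0.28. With 3 libraries per group these values cannot decide whether the numbers pair them. With the number as a replicate block within each line, 7353 genes were called (3678 higher, 3675 lower) and 3617 differences from control (1737 positive, 1880 negative). In the 6 libraries alone the block gave 6209 (3183 higher, 3026 lower). Genes at 3 counts or fewer in a group are limited by depth.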
